A study of Mus musculus with 10 samples.

Results

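Gelsolin and 7 other genes that build, cap or hold back actin filaments were followed through 10 RNA-seq libraries of sorted mouse skeletal stem and stromal cells. The 8 genes were Gsn, Capg, Tmsb4x, Tmsb10, Pfn1, Cfl1, Actb and Actg1, out of 15078 genes in the table, and each was found by its symbol in 1 row. They were chosen on values of these libraries, since Gsn was taken because it has the highest count in every library of periosteal cells, and the other 7 because they act on actin filaments. All 8 passed the filter of a mean of at least 10, and the lowest single value rested on 125 reads.

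The graft BM-MSC group (n = 4) held Tomato+ CD51+CD200+ bone marrow mesenchymal stem cells from the marrow of femurs of mice labelled transgenic (POSTN-CRE), 5 months after the femurs were implanted under the skin of wild-type hosts. These femurs carried a Cre recombinase that tamoxifen switches on, driven by the promoter of Postn, and a tdTomato reporter, and the hosts were given tamoxifen. Postn is used by more than 1 cell type, so Tomato marks cells with a history of Postn use and not a single lineage. The BM-MSC group (n = 3) held CD51+CD200+ cells of wild-type marrow at steady state, and the P-SSC group (n = 3) held CD51+CD200+ skeletal stem cells of wild-type periosteum at steady state. The sample titles call both of these groups host, steady state. The study describes tamoxifen for recipients of the transgenic femurs, and whether the steady-state mice were given it is not stated. All cells came from adult mice and were sorted without blood and endothelial cells, and some steady-state libraries joined the RNA of 2 mice. The labels give no age. Graft cells were taken 5 months after implantation, and whether the steady-state mice were of like age is not stated. A difference in age therefore cannot be told apart from the graft group. The study's methods state that replicates did not share mice. Whether marrow and periosteal libraries came from the same mice is not stated.

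Actin exists as single monomers and as filaments that grow at one end. Thymosins (Tmsb4x, Tmsb10) bind monomers and keep them out of filaments, profilin (Pfn1) hands monomers to the growing end, cofilin (Cfl1) cuts and takes apart old filaments, and gelsolin (Gsn) and the related capping protein (Capg) close the growing end, gelsolin also by cutting filaments. Gelsolin exists in a form that stays in the cell and a form that is secreted into plasma, both made from 1 gene through different transcription starts. Fibroblasts and other mesenchymal cells use these proteins to move, spread and hold tension.

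The libraries held between 15415421 and 25223295 reads in the listed genes. Cell identity was checked with marker lists. The summed normalized read count of 6 marrow stroma markers was 710830 to 847020 in graft BM-MSCs and 866780 to 1184000 in BM-MSCs, against 5387 to 11296 in P-SSCs, and that of 6 periosteal and fibroblast markers was 335010 to 594900 in P-SSCs and at most 12323 elsewhere. Markers of other cells were not even. The sum of 6 pan-blood markers was 1536 to 3335 in BM-MSCs, 184 to 652 in 3 graft libraries but 3390 in graft BM-MSC 3, and 0.969 to 73.7 in P-SSCs, where Ptprc and Vav1 were listed at 0. That of 7 neutrophil markers was 28950 to 85988 in BM-MSCs, 5624 to 10713 in 3 graft libraries and at most 110 in P-SSCs. In graft BM-MSC 3 it was 106510, with Elane and Mpo listed at 0. For 6 red cell markers the sum was 58705 to 205920 in BM-MSCs, 1483 to 27755 in the graft and at most 1406.5 in P-SSCs. Of 3 endothelial markers in the table, Tek was 3254 to 6869 in P-SSCs and at most 1.0 elsewhere, while Cdh5 was 2.1 to 58.6 in P-SSCs and listed at 0 in the marrow, and Emcn was listed at 0 in P-SSCs and graft libraries and was 24.3 to 81.5 in BM-MSCs, so that its members differed in direction. Likewise, of 5 contractile perivascular markers, Acta2 was 7454 to 22978 in P-SSCs and at most 3905 elsewhere, and Rgs5 was 86.2 to 128 in P-SSCs and 266 to 1437 in BM-MSCs. The libraries also differed by GC content. The median deviation of genes over 65% GC (51 genes) minus that of genes with 50 to 60% GC (6033 genes) was taken per library. On the log2 scale it was between 1.69 and 2.80 in the graft libraries and 1.52 in P-SSC 4. In the other 5 libraries it was between -1.81 and -1.51. Between the marrow groups this pattern and the group cannot be told apart. None of the 8 genes is in the class over 65%, and the highest, Pfn1, has 59.2% GC.

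Where reads were taken from matters for these genes. On GRCm38 and the GENCODE M21 annotation, Gsn (ENSMUSG00000026879) lies on the plus strand at chr2:35256380-35307892 and Capg (ENSMUSG00000056737) on the plus strand at chr6:72544391-72562983. Tmsb10 (ENSMUSG00000079523) lies on the minus strand of the same chromosome as Capg at chr6:72957347-72958748, and its relative Tmsb4x (ENSMUSG00000049775) on the minus strand at chrX:167207093-167209315. Pfn1 (ENSMUSG00000018293, minus strand) is at chr11:70651850-70654644 and Cfl1 (ENSMUSG00000056201, plus strand) at chr19:5490455-5495201. Actb (ENSMUSG00000029580, minus strand) is at chr5:142903115-142906754 and Actg1 (ENSMUSG00000062825, minus strand) at chr11:120345690-120348542. All are protein-coding. A read of 75 bases can come from other genes for some of them. None of the stretches of 75 bases in the Gsn, Capg, Tmsb4x and Pfn1 transcripts was found in another gene, against 54.5% of those of Actg1, which match 10 genes, 32.8% of those of Tmsb10, which match 2, 3.6% of those of Cfl1 and 2.6% of those of Actb. The values of Actg1 and Tmsb10 are therefore uncertain where the counting split or dropped shared reads.

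The sequences just upstream of the genes that were higher in P-SSCs, Gsn, Capg and Actg1, are printed to show what lies before their starts. Each is the 250 bases before a RefSeq transcription start on GRCm38.p6, read 5′ to 3′ along the gene's strand. Gsn has 3 such starts, and the table counts reads of the whole gene, so that the levels given here do not separate the starts. Capitals mark matches, on either strand, to the GC box (GGGCGG) bound by Sp factors and to the CArG box bound by SRF, the factor that drives many actin genes. TATA boxes (TATAAA) and AP-1 sites (TGANTCA) were searched too and were not in these 5 windows.
Gsn, start 1, chr2:35256109-35256358, plus strand: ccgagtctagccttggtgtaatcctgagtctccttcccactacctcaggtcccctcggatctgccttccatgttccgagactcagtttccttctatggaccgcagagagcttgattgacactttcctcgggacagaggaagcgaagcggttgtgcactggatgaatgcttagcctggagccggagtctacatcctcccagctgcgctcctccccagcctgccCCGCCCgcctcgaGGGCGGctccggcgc
Gsn, start 2, chr2:35266494-35266743, plus strand: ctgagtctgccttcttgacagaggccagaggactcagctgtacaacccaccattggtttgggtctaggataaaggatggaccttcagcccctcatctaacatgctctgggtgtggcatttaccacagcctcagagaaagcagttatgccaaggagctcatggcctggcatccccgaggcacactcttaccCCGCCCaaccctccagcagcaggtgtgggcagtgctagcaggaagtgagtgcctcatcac
Gsn, start 3, chr2:35282130-35282379, plus strand: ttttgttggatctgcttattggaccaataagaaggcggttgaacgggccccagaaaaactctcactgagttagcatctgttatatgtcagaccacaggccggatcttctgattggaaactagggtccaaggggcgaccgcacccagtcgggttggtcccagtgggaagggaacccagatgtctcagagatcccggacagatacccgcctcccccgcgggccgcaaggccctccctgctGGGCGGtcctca
Capg, chr6:72549397-72549646, plus strand: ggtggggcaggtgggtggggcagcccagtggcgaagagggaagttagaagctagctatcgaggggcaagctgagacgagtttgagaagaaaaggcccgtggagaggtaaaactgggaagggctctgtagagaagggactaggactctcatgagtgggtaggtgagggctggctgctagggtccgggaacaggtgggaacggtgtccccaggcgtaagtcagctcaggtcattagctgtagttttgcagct
Actg1, chr11:120348496-120348745, minus strand: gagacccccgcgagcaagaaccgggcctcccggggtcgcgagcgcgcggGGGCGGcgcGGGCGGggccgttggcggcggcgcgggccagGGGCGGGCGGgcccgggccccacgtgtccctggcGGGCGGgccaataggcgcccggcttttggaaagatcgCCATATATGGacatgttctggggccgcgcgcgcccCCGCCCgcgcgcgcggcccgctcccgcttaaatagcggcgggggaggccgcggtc
A single CArG box stood before Actg1, and none stood in the windows of Gsn and Capg. Of all 32851 RefSeq windows of this length, 1.47% held a CArG box, 32.7% a GC box, 12.4% a TATA box and 6.75% an AP-1 site. The Actg1 window held 6 GC boxes, some overlapping, the 3 Gsn windows held 2, 1 and 1, and the Capg window held 0. A match of letters is not a bound site.

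Gsn was the most abundant transcript of the periosteal cells. Its normalized read count was 2217185 in P-SSC 1, 2173686 in P-SSC 2+5 and 1602141 in P-SSC 4. In the marrow it was 19764, 27717 and 14542 in BM-MSC 1, 2+4 and 3, and 8843, 3918, 8860 and 16721 in graft BM-MSC 1 to 4. Every P-SSC library lay far above all marrow libraries, and the ranges of the marrow groups overlapped through graft BM-MSC 4.

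**Figure D1:**
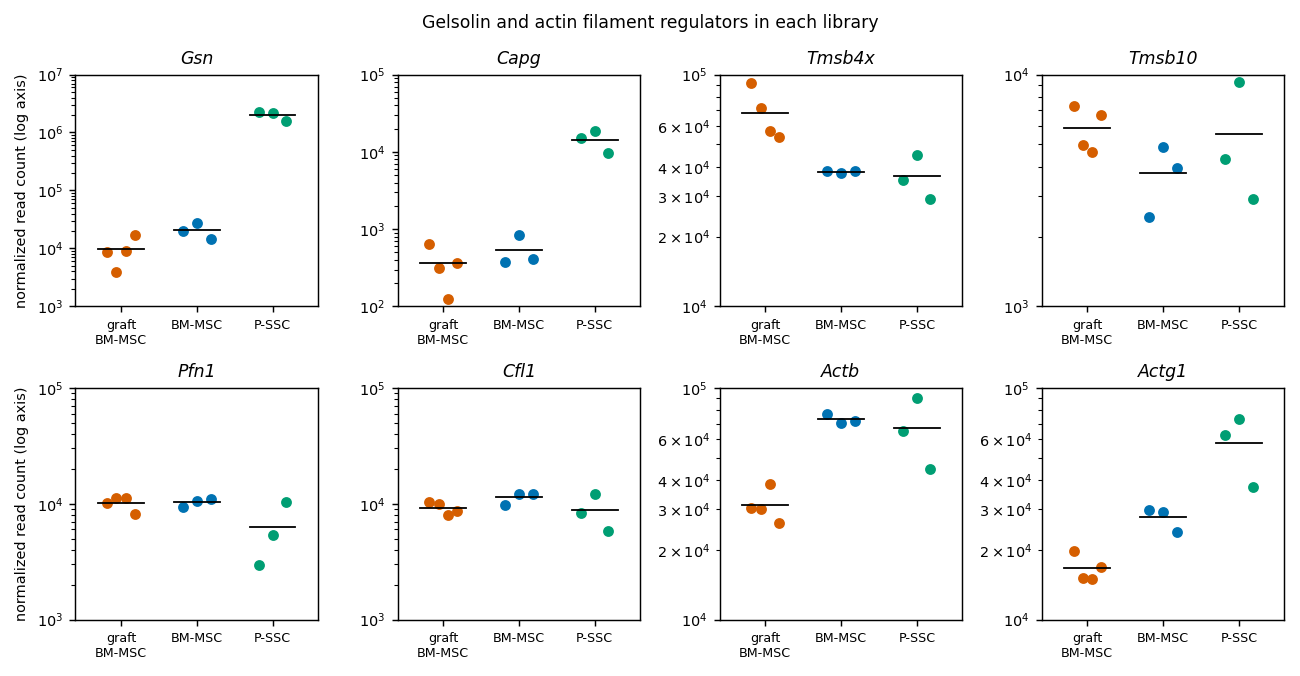
Normalized read count (log axis, with a separate range per gene) of the 8 genes in graft BM-MSC (n = 4), BM-MSC (n = 3) and P-SSC (n = 3) libraries. Points are libraries and lines are group means. Gsn and Capg are highest in all 3 P-SSC libraries, Tmsb4x in all 4 graft libraries, and the graft libraries lie below the others for Actb and Actg1.

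A single gene thus took 10.6%, 9.39% and 8.54% of all reads in P-SSC 1, 2+5 and 4. The share was 0.0787% to 0.135% in BM-MSCs and 0.0266% to 0.116% in graft BM-MSCs. By count Gsn ranked 1 in each P-SSC library, where the next gene, Col3a1, a fibrillar collagen, took 2.31% to 3.42% of the reads. It ranked 80 to 138 in BM-MSCs and 94 to 547 in graft BM-MSCs. Ranked by reads per kilobase of exon, scaled to the total reads of the library (RPKM), Gsn was again first in every P-SSC library, at 30081 ± 3218 (SD, n = 3), while BM-MSCs had 341 ± 90.0 (SD, n = 3) and graft BM-MSCs 207 ± 117 (SD, n = 4). The mean normalized count in P-SSCs was 96.6-fold that of BM-MSCs and 208-fold that of graft BM-MSCs, and by share of reads these folds were 88.1 and 145. These values are a description, because the level of Gsn in P-SSCs chose the gene. In bulk RNA of sorted cells, fewer cells of a type and less RNA per cell cannot be told apart.

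Between the marrow groups, which played no part in that choice, Gsn differed by -1.24 ± 0.41 (log2 of the value + 1, graft BM-MSC minus BM-MSC, ± SE). The difference did not pass the test (adjusted p = 0.0971, limma), and the values overlapped. Without graft BM-MSC 4 it was -1.57 with an adjusted p of 0.031, so that this 1 library decided the call. That was the only 1 of 24 alternative fits in which the difference passed the test, and its size ranged from -1.57 to -0.043 over them. After a correction for GC content it was -0.41. The median difference of all genes was -0.53, and that of Gsn minus this median was -0.71. The spread among graft libraries was wide, with graft BM-MSC 4 at over 4 times graft BM-MSC 2.

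The share of reads that went to the other 7 genes together was similar in all libraries. It ranged from 0.836% to 1.20% in graft BM-MSCs, from 0.810% to 0.924% in BM-MSCs and from 0.748% to 1.10% in P-SSCs, and these ranges overlap. With Gsn included, the 8 genes took 9.29% to 11.5% of the reads in P-SSCs and 0.921% to 1.26% in the marrow libraries. Within the 7, the makeup differed between groups, as the following paragraphs give.

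**Figure D2:**
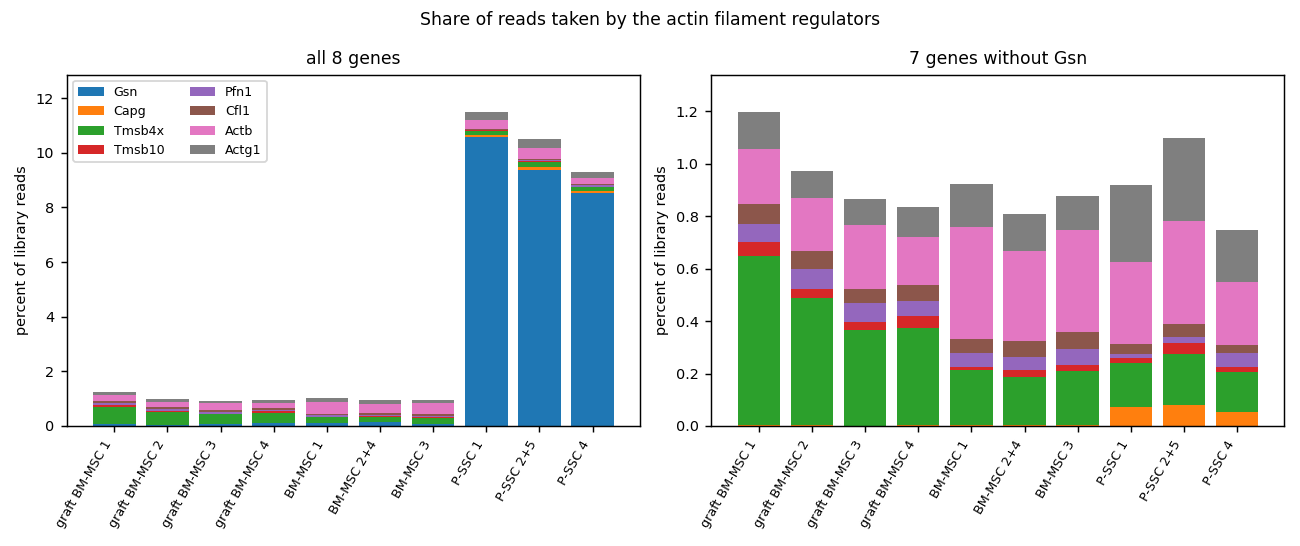
Percent of each library's reads taken by the 8 genes (left) and by the 7 without Gsn (right), stacked by gene, 1 bar per library. Gsn alone takes 8.54% to 10.6% in P-SSCs. Among the other 7, Tmsb4x (green) is the largest part of each graft bar, and Actb and Actg1 (pink, grey) together fill most of each P-SSC bar.

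The tests ran across all 13644 genes with a mean of at least 10, with limma and Benjamini-Hochberg adjustment, and a gene is called at an adjusted p under 0.05. Between graft BM-MSCs and P-SSCs, 6.08% of all genes were called higher in graft BM-MSCs and 12.0% lower. Of the 7 members other than Gsn, 1 was higher (Tmsb4x) and 3 were lower (Capg, Actb, Actg1). Between graft BM-MSCs and BM-MSCs, 2.61% of all genes were called higher in the graft and 5.06% lower, and of the 8 members 1 was higher (Tmsb4x) and 1 lower (Actb). Between P-SSCs and BM-MSCs, 4.57% of all genes were called higher in P-SSCs and 4.58% lower, and of 7 members 2 were higher (Capg, Actg1) and none was lower by limma. At an unadjusted limma p under 0.05, 1 member, Pfn1, was lower in P-SSCs than in BM-MSCs, and edgeR and DESeq2 also called 0 lower.

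These comparisons share groups, so that their values are not independent. The median log2 difference of all genes was -0.47 for graft BM-MSCs minus P-SSCs, -0.53 for graft BM-MSCs minus BM-MSCs and 0.0022 for P-SSCs minus BM-MSCs. Without Gsn, the median of the members was 0.14, -0.29 and -0.086. The balance of directions depended on the scaling. Of the genes called, 33.7% were higher in graft BM-MSCs against P-SSCs and 34.0% against BM-MSCs with the deposited scaling, 53.0% and 51.7% with CPM scaling, 50.1% and 57.5% with quantile normalization, and 61.4% and 71.4% after a correction for GC content. Differences that involve the graft are therefore best read beside the median.

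**Figure D3:**
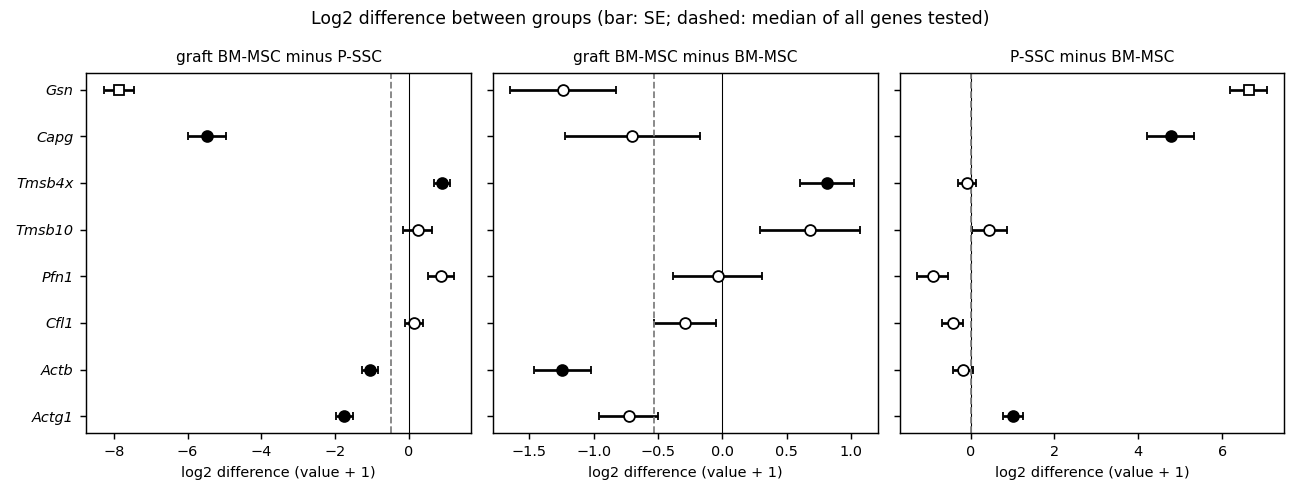
Log2 difference (value + 1) of the 8 genes in the 3 comparisons, with bars of 1 SE and the horizontal scale set per panel. Filled circles passed the test, open circles did not, open squares (Gsn against P-SSCs) were not tested, and the dashed line is the median of all genes tested (-0.47, -0.53 and 0.0022). Capg and Gsn lie far from 0 in both comparisons with P-SSCs, and Tmsb4x and Actb lie on opposite sides in both comparisons of the graft.

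Capg, which caps filament ends without cutting them, shared the periosteal pattern of Gsn. Its normalized read count was 14911, 18410 and 9764 in P-SSC 1, 2+5 and 4. It was 378, 832 and 412 in BM-MSC 1, 2+4 and 3, and 644, 318, 126 and 364 in graft BM-MSC 1 to 4. All P-SSC libraries lay above all marrow libraries, and the marrow groups overlapped. The mean in P-SSCs was 26.6-fold that of BM-MSCs (log2 difference 4.78 ± 0.56, adjusted p = 0.000376, limma) and 39.6-fold that of graft BM-MSCs (log2 difference -5.47 ± 0.53 for graft minus P-SSC, adjusted p = 8.07e-05). Graft BM-MSCs and BM-MSCs differed by -0.70 ± 0.53 (adjusted p = 0.432), and this value turned positive, to 0.13, after the GC correction. Capg is also known as a macrophage protein. The summed macrophage markers were 455, 2707 and 1335 in P-SSC 1, 2+5 and 4, 4658 to 16813 in BM-MSCs, 1446, 1871 and 1645 in graft BM-MSC 1, 2 and 4 and 13439 in graft BM-MSC 3. P-SSC 2+5, with the highest Capg, thus lay below every BM-MSC library but above 3 graft libraries in macrophage markers, and their part in the level of Capg was not tested. In graft BM-MSC 3, Lyz2 made up most of the macrophage sum (12846), while Adgre1, Cd68 and C1qb were listed at 0.

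Against Gsn, Capg remained the minor capping transcript. Per kilobase, Gsn exceeded Capg by a factor of 114 in P-SSCs, 31.6 in BM-MSCs and 21.8 in graft BM-MSCs (geometric means). Over the 10 libraries, the log2 level of Capg had a Pearson correlation of 0.96 with that of Gsn, and Actg1 one of 0.91, while Actb had 0.50, Tmsb10 0.013, Cfl1 -0.31, Tmsb4x -0.63 and Pfn1 -0.72. The libraries fall into groups, so that these numbers describe the step from marrow to periosteum and carry no test. Of 9546 genes with a mean of at least 100, the 5 most like Gsn were Col6a3, a chain of collagen VI (r = 0.992), Angptl7, a secreted angiopoietin-like protein (0.988), Il11ra1, the interleukin 11 receptor (0.988), Cd34, a surface marker of stem cells and fibroblasts (0.988), and Daglb, a lipase (0.988). Angptl7 and Cd34 were listed at 0 in all graft libraries and averaged 9211 and 63165 in P-SSCs.

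Tmsb4x, the main monomer-binding thymosin, was highest in graft marrow cells. Its normalized read count was 91886, 71641, 56930 and 53745 in graft BM-MSC 1 to 4. It was 38190, 37678 and 38524 in BM-MSC 1, 2+4 and 3, and 35168, 45182 and 29177 in P-SSC 1, 2+5 and 4. Every graft library lay above every steady-state library, while the steady-state groups overlapped. Graft BM-MSCs were 1.80-fold above BM-MSCs (log2 difference 0.81 ± 0.21, adjusted p = 0.0431, limma) and 1.88-fold above P-SSCs (0.90 ± 0.21, adjusted p = 0.0137). P-SSCs and BM-MSCs differed by -0.086 ± 0.22 (adjusted p = 0.987).

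The first of these calls was close to the threshold and was lost in 14 of 24 alternatives. It was lost when graft BM-MSC 1, 2 or 3, any 1 of the 3 BM-MSC libraries or P-SSC 1 was left out (adjusted p = 0.0537 to 0.140), in the edgeR fit (0.101), with a filter at a mean of 100 (0.088), with only 2 groups in the fit (0.0714), with the covariate for GC-rich libraries (0.257) and, at the largest adjusted p outside the fits with a replicate block, with median centring (0.27), with log2 differences between 0.65 and 1.68 in all 24 alternatives. The call against P-SSCs was lost in 4 of 24, among them without P-SSC 1 (adjusted p = 0.0634), with only 2 groups in the fit (0.0685) and with median centring (0.135). Set beside the median of all genes, Tmsb4x lay 1.34 above it against BM-MSCs and 1.37 above it against P-SSCs, and between 0.88 and 2.06 above it under other scalings and tests in both comparisons. The value of 2.06 came from the covariate fit, in which the covariate is estimated only from P-SSC 4 against the other P-SSC libraries. Tmsb4x is also abundant in blood cells. Their markers were uneven, with pan-blood sums of 184, 568 and 652 in graft BM-MSC 1, 2 and 4 and 3390 in graft BM-MSC 3 against 1536 to 3335 in BM-MSCs, and platelet sums of 74.2 to 612 in the graft against 271 to 1916 in BM-MSCs. Neutrophil sums were 5624 to 10713 in graft BM-MSC 1, 2 and 4, 106510 in graft BM-MSC 3 and 28950 to 85988 in BM-MSCs. The part of blood cells in the level of Tmsb4x was not tested.

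Tmsb10, the related thymosin, varied more between libraries. Its normalized read count was 7311, 4950, 4652 and 6659 in graft BM-MSC 1 to 4, 2428, 4883 and 3955 in BM-MSC 1, 2+4 and 3, and 4320, 9325 and 2906 in P-SSC 1, 2+5 and 4. The groups overlapped, and no comparison passed the test (log2 difference 0.68 ± 0.39 for graft BM-MSCs minus BM-MSCs, adjusted p = 0.301). Tmsb4x exceeded Tmsb10 per kilobase by a factor of 10.8 in graft BM-MSCs, 9.84 in BM-MSCs and 6.83 in P-SSCs, with a spread between libraries from 4.51 to 14.6 that covers these differences.

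Profilin 1 was even in marrow and uneven in periosteum. Pfn1 stood at 10100, 11205, 11169 and 8138 normalized reads in graft BM-MSC 1 to 4 and at 9404, 10592 and 11043 in BM-MSC 1, 2+4 and 3. In P-SSC 1, 2+5 and 4 it was 2986, 5373 and 10383. P-SSC 4, the periosteal library in which GC-rich genes were high, thus reached the marrow level, and the other 2 lay below all marrow libraries. Pfn1 has a GC content of 59.2%, the highest of the 8 genes, where the median of tested genes was 49.7%. Tmsb10 (58.7%) and Gsn and Capg (57.1% each) were close to it. All members other than Pfn1 had their lowest periosteal count in P-SSC 4, also those of lower GC content such as Tmsb4x (47.45%).

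With all libraries, Pfn1 in P-SSCs differed from BM-MSCs by -0.91 ± 0.37 (adjusted p = 0.197, limma) and graft BM-MSCs from P-SSCs by 0.87 ± 0.34 (adjusted p = 0.107). Without P-SSC 4 the differences were -1.37 (adjusted p = 0.011) and 1.33 (adjusted p = 0.00528), both past the threshold. Graft BM-MSCs and BM-MSCs differed by -0.036 ± 0.34 (adjusted p = 0.972). Whether GC content has a part in the level of Pfn1 in P-SSC 4 was not tested.

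Cofilin 1 differed little between the groups. Cfl1 stood at 10456, 9954, 7995 and 8722 normalized reads in graft BM-MSC 1 to 4, 9713, 12140 and 12151 in BM-MSC 1, 2+4 and 3, and 8331, 12110 and 5838 in P-SSC 1, 2+5 and 4. The groups overlapped, and log2 differences were -0.29 ± 0.24 for graft BM-MSCs minus BM-MSCs (adjusted p = 0.479, limma), -0.43 ± 0.26 for P-SSCs minus BM-MSCs (0.488) and 0.14 ± 0.24 for graft BM-MSCs minus P-SSCs (0.719). The ratio of Cfl1 to Pfn1 per kilobase, which does not depend on how a library is scaled, was 0.605 to 0.906 in graft BM-MSCs and 0.873 to 0.969 in BM-MSCs. It was 2.36 and 1.91 in P-SSC 1 and 2+5 but 0.476 in P-SSC 4. The periosteal libraries thus lay on both sides of the marrow. The size of this ratio depends on the exon lengths used (2844 bases for Cfl1, 2405 for Pfn1), but the order of the libraries does not.

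The cytoplasmic actins were lowest in the graft. Actb, which encodes β-actin, had a normalized read count of 30367, 29947, 38324 and 26221 in graft BM-MSC 1 to 4. It was 77445, 70390 and 72125 in BM-MSC 1, 2+4 and 3, and 65157, 90522 and 44787 in P-SSC 1, 2+5 and 4. Every graft library lay below every steady-state library, and BM-MSCs lay within the range of P-SSCs. Graft BM-MSCs were lower than BM-MSCs by 1.24 on the log2 scale (SE 0.22, a 2.35-fold difference, adjusted p = 0.00964, limma) and lower than P-SSCs by 1.05 (SE 0.22, 2.14-fold, adjusted p = 0.0082), while P-SSCs and BM-MSCs differed by -0.19 ± 0.24 (adjusted p = 0.884).

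Actb is often used as a reference gene, so its direction was followed through every alternative. Graft libraries remained below BM-MSCs and P-SSCs in all 24 alternatives of each comparison, and both calls held when any 1 library was left out. The size depended on the scaling. Against BM-MSCs the log2 difference was -0.36 after the GC correction (adjusted p = 0.639) and -0.47 with a covariate for the libraries with GC-rich genes high (adjusted p = 0.808). Against P-SSCs it was -0.18 (adjusted p = 0.79) and -0.53 (adjusted p = 0.275) in the same fits, -0.55 with CPM scaling (adjusted p = 0.0555), -1.13 with median centring (adjusted p = 0.0601) and -0.44 with quantile normalization (adjusted p = 0.0693). Relative to the median of all genes, Actb lay 0.72 below it against BM-MSCs with the deposited scaling, 0.58 below it after the GC correction and 0.33 above it with the covariate. The covariate varies within a group only among P-SSCs, through P-SSC 4. Its fits therefore carry the offset of that 1 library over to the graft and cannot separate GC content from the group. The GC content of Actb is 51.2%.

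Actg1, which encodes γ-actin, was highest in periosteal cells. Its normalized read count was 62307, 73712 and 37391 in P-SSC 1, 2+5 and 4, 29687, 29268 and 23851 in BM-MSC 1, 2+4 and 3, and 19744, 15103, 14996 and 16891 in graft BM-MSC 1 to 4. The 3 groups did not overlap, with graft BM-MSCs lowest. P-SSCs were 2.09-fold above BM-MSCs (log2 difference 1.02 ± 0.24, adjusted p = 0.024, limma) and 3.46-fold above graft BM-MSCs (log2 difference -1.75 ± 0.23 for graft minus P-SSC, adjusted p = 0.000448). The call against BM-MSCs was lost in 11 of 24 alternatives. It was lost without any 1 of the 3 BM-MSC libraries, P-SSC 1 or P-SSC 2+5 (adjusted p = 0.0594 to 0.108), in the edgeR fit (0.0878), with only 2 groups in the fit (0.107), after the GC correction (0.172) and with median centring (0.223, the largest outside the fits with a replicate block), and held without P-SSC 4. The call against graft BM-MSCs held without any 1 library and was lost after the GC correction (log2 difference -0.77, adjusted p = 0.163). Graft BM-MSCs and BM-MSCs differed by -0.73 ± 0.23 (adjusted p = 0.0828), which passed the test without P-SSC 4 (adjusted p = 0.0149) and turned to 0.21 after the GC correction.

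The balance of the actins within a library needs no scaling. Per kilobase, Actb exceeded Actg1 by a factor of 2.39 to 3.00 in BM-MSCs, 1.53 to 2.54 in graft BM-MSCs and 1.04 to 1.22 in P-SSCs. The P-SSC libraries all lay below the others, P-SSC 4 (1.19) between P-SSC 1 and P-SSC 2+5, and the marrow groups overlapped through graft BM-MSC 3. The ratio of Tmsb4x to Actb, chosen after their values were seen and not tested, was 5.91, 4.68, 2.90 and 4.01 in graft BM-MSC 1 to 4. It was 0.964, 1.05 and 1.04 in BM-MSC 1, 2+4 and 3, and 1.06, 0.975 and 1.27 in P-SSC 1, 2+5 and 4. Every graft library thus held more Tmsb4x per Actb than any steady-state library. Whether GC content has a part in this ratio was not tested.

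**Figure D4:**
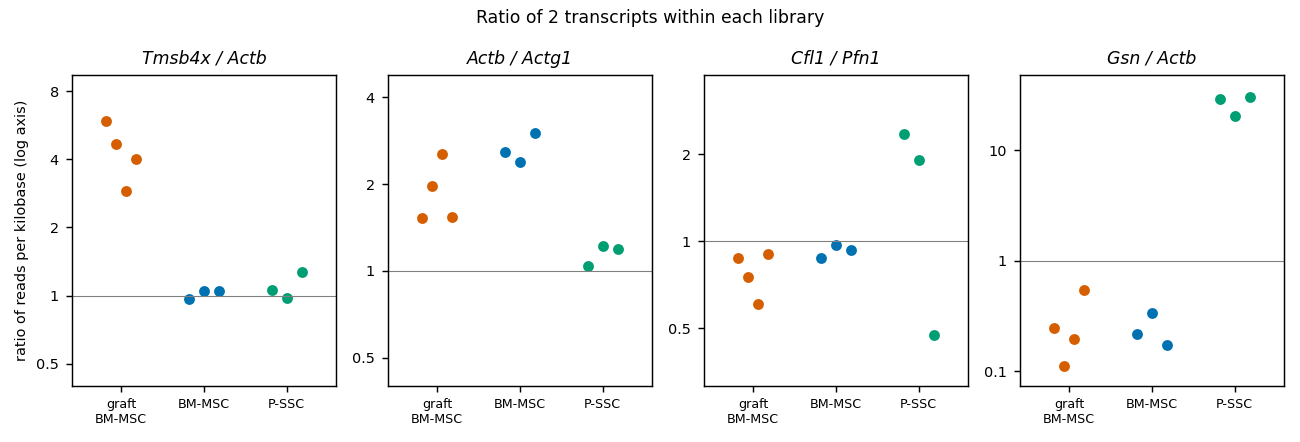
Ratio of 2 transcripts per kilobase of exon within each library (log axis, 1 point per library, line at a ratio of 1). Heights relative to the line depend on the exon lengths used, and the order of libraries does not. Tmsb4x to Actb is 2.90 to 5.91 in graft BM-MSCs and at most 1.27 elsewhere, Actb to Actg1 is at most 1.22 in P-SSCs, Cfl1 to Pfn1 splits the P-SSC libraries (0.476 against 1.91 and 2.36), and Gsn to Actb is far higher in P-SSCs.

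The order of the 8 genes by level per length differed between the cells. Length was the annotated exon length of the gene, such as 2405 bases for Pfn1 and 2844 for Cfl1. The transcripts searched for shared sequence were shorter by unequal amounts, at 861 bases for Pfn1 and 2354 for Cfl1. The order of genes within a group therefore depends on the length used, and transcript lengths were not tested. Each gene had the same length in all libraries. In BM-MSCs the highest RPKM were those of Tmsb4x (1467 ± 108, SD, n = 3) and Actb (1446 ± 157), which do not differ beyond their spread, then Actg1 (547 ± 66.4), Gsn (341 ± 90.0), Pfn1 (227 ± 18.9), Cfl1 (210 ± 21.2), Tmsb10 (153 ± 42.8) and Capg (11.1 ± 4.36). Pfn1 and Cfl1 overlapped at these exon lengths. In graft BM-MSCs Tmsb4x stood alone at the top (3410 ± 952, SD, n = 4), followed by Actb (788 ± 101) and Actg1 (428 ± 70.2), while Tmsb10, Pfn1, Cfl1 and Gsn lay at means of 207 to 315 with overlapping libraries. In P-SSCs Gsn came before Tmsb4x (1260 ± 148, SD, n = 3), Actb (1170 ± 284) and Actg1 (1021 ± 238), which overlapped, and Capg (267 ± 55.6) stood with Tmsb10, Cfl1 and Pfn1 at means of 129 to 199.

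Other genes rose and fell with Actb across the libraries. Of the same 9546 genes, the 5 with the highest Pearson correlation of log2 values over the 10 libraries were Eno1 (0.978) and Tpi1 (0.972), enzymes of glycolysis, Atp5a1, a subunit of mitochondrial ATP synthase (0.977), Ddx39b, an RNA helicase (0.973), and Sin3b, a transcriptional corepressor (0.972). Eno1 averaged 6542 in graft BM-MSCs, 16733 in BM-MSCs and 15689 in P-SSCs. These values describe libraries in 3 groups and carry no test.

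Other genes of the actin machinery were taken from a list of 122 in 12 classes, of which 108 were in the table and 105 were tested. Between graft BM-MSCs and P-SSCs 28 of 105 (26.7%) were lower in graft BM-MSCs and 6 (5.71%) were higher, beside 12.0% and 6.08% of all genes. The median log2 difference of the list was -0.80 and that of all genes -0.47. With CPM scaling 19 were lower and 10 higher, and after the GC correction 13 and 11. Without P-SSC 1, 17 were lower and 5 higher. Between graft BM-MSCs and BM-MSCs 12 (11.4%) were lower and 4 (3.81%) higher, beside 5.06% and 2.61% (medians -0.73 and -0.53), but after the GC correction 4 were lower and 9 higher, and without BM-MSC 1, 2+4 or 3 the calls numbered 8, 6 and 9. Between P-SSCs and BM-MSCs 7 (6.67%) were higher in P-SSCs and 8 (7.62%) lower, beside 4.57% and 4.58% (medians 0.32 and 0.0022). Without P-SSC 1, BM-MSC 2+4 or BM-MSC 3 these 15 calls became 9, 8 and 6.

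**Figure D5:**
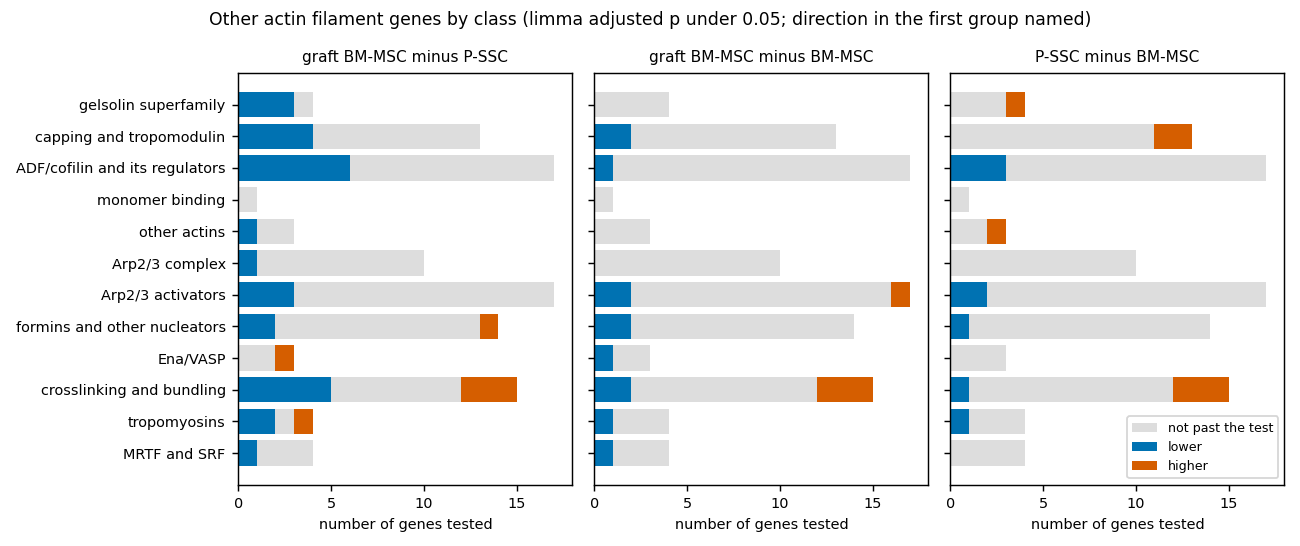
Number of tested genes in each of 12 classes of other actin filament genes, by result in the 3 comparisons (blue, lower in the first group named; orange, higher; grey, not past the test). Between graft BM-MSCs and P-SSCs most calls are lower in the graft, and 3 of 4 in the gelsolin superfamily are.

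Most other gelsolin relatives were lower in the graft than in periosteum. Of 4 tested, 3 were called lower in graft BM-MSCs than in P-SSCs. Scin, the filament-cutting scinderin, was listed at 0 in all 4 graft libraries and in BM-MSC 3, at 55.4 and 50.6 in BM-MSC 1 and 2+4, and at 1886, 932 and 473 in P-SSC 1, 2+5 and 4 (adjusted p = 0.00119 against the graft and 0.0425 for P-SSCs minus BM-MSCs, limma). Svil, which ties filaments to the membrane, was 1792 to 2742 in P-SSCs and 19.1 to 214 in graft BM-MSCs (log2 difference -4.69 for graft minus P-SSC). Flii, a gelsolin-related cofactor, was 4315 to 5484 in P-SSCs and 338 to 1460 in graft BM-MSCs (-2.44).

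Most capping proteins and tropomodulins other than Capg did not pass the test. Of 13 tested, 4 were lower in graft BM-MSCs than in P-SSCs, namely Add1, Add3, Capzb and Tmod2. Add3, an adducin that caps filaments beneath the membrane, averaged 7087 ± 1108 (SD, n = 3) in P-SSCs, while BM-MSCs had 599 ± 151 (SD, n = 3) and graft BM-MSCs had 271 ± 183 (SD, n = 4), and passed the test against both marrow groups (log2 difference 3.58 ± 0.60 for P-SSCs minus BM-MSCs, adjusted p = 0.00305, limma). Capzb, a subunit of the main capping protein, was lower in graft BM-MSCs (3481 ± 681) than in BM-MSCs (6808 ± 618, log2 difference -0.99 ± 0.20, adjusted p = 0.0179). Tmod2, a tropomodulin that caps the other end, averaged 825 in P-SSCs and 33.1 in graft BM-MSCs (log2 difference -6.80 ± 1.74, adjusted p = 0.0217).

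Among 17 genes of the class of cofilins and their regulators, 6 were lower in graft BM-MSCs than in P-SSCs, with Limk1, a kinase that switches cofilin off, the most changed of those with a mean of at least 100 (17.3 ± 20.9 against 421 ± 284, log2 difference -5.92 ± 1.75, adjusted p = 0.0398, limma). Wdr1, a partner of cofilin in taking filaments apart, was the 1 member of the class called between graft BM-MSCs (4436 ± 1281) and BM-MSCs (11206 ± 906, log2 difference -1.38 ± 0.23, adjusted p = 0.00624). Between P-SSCs and BM-MSCs 3 were lower in P-SSCs, Wdr1, Coro1a and Gmfg. Coro1a, a coronin of blood cells, was 1005, 1511 and 1726 in BM-MSC 1, 2+4 and 3 and 60, 0 and 0 in P-SSC 1, 2+5 and 4 (adjusted p = 0.0126). In the graft it was 1322 in graft BM-MSC 3 and at most 186 in the others, the same library in which the pan-blood markers were high. The part of blood cells in this value was not tested.

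The Arp2/3 complex starts branches on filaments. Of 10 subunits tested, 1, Arpc1b, was lower in graft BM-MSCs (8267 ± 1699) than in P-SSCs (15399 ± 5290, log2 difference -0.86 ± 0.26, adjusted p = 0.0434, limma). Of 17 activators of the complex, Cttn, Cyfip1 and Washc1 were lower in graft BM-MSCs than in P-SSCs. Washc1, part of the WASH complex on endosomes, averaged 30.9 in graft BM-MSCs and 223 in P-SSCs (adjusted p = 0.0429). Against BM-MSCs, Nckap1, a subunit of the WAVE complex, was higher in graft BM-MSCs (1386 ± 736 against 193 ± 96.6, log2 difference 2.84 ± 0.67, adjusted p = 0.0313), and Nckap1l and Hcls1, both of blood cells, were lower. P-SSCs were lower than BM-MSCs in Nckap1l and Was, again genes of blood cells, beside pan-blood markers of 0.969 to 73.7 in P-SSCs and 1536 to 3335 in BM-MSCs.

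Formins and Ena/VASP proteins, which lengthen filaments, differed in both directions. Fmnl3, a formin, averaged 1093 ± 458 in graft BM-MSCs and 967 ± 182 in BM-MSCs but 112 ± 119 in P-SSCs, and was called in both comparisons with P-SSCs (adjusted p = 0.00413 and 0.00968, limma). Diaph3 and Fhod3 were lower in graft BM-MSCs than in both other groups, at low counts. Evl was higher in graft BM-MSCs (285 ± 142) than in P-SSCs (23.9 ± 16.2, adjusted p = 0.0273), and Vasp was lower in graft BM-MSCs (390 ± 83.8) than in BM-MSCs (1168 ± 94.0, adjusted p = 0.0238).

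Crosslinking and membrane-linking proteins went in both directions. Marcks and its relative Marcksl1, which bind filaments and membrane lipids, were high in graft cells. Marcks was 8673, 4845, 9819 and 10856 in graft BM-MSC 1 to 4, 577 to 1140 in BM-MSCs and 527 to 1195 in P-SSCs (log2 difference 3.46 ± 0.39 for graft minus BM-MSC, adjusted p = 0.00182, limma). Marcksl1 averaged 2192 ± 566 in graft BM-MSCs, 375 ± 85.8 in BM-MSCs and 51.3 ± 69.2 in P-SSCs, and was called between graft BM-MSCs and P-SSCs (6.43 ± 0.86, adjusted p = 0.000508) and between P-SSCs and BM-MSCs (adjusted p = 0.0219). Filamins, which join filaments into nets, went the other way. Flnc was 2490 to 3408 in P-SSCs, at most 125 in BM-MSCs and at 0, 0, 48.3 and 0 in graft BM-MSC 1 to 4 (adjusted p = 0.00267 for graft minus P-SSC), and Flna was lower in graft BM-MSCs (5065 ± 1766) than in BM-MSCs (11155 ± 1360, adjusted p = 0.0426). Msn, which ties filaments to the membrane, was higher in P-SSCs (9065 ± 809) than in BM-MSCs (3695 ± 366, adjusted p = 0.00512).

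Tropomyosin 1, which coats and steadies filaments, separated all 3 groups. Tpm1 was 22115, 26775 and 24320 in BM-MSC 1, 2+4 and 3, 13553 to 16487 in graft BM-MSCs and 2551 to 3587 in P-SSCs, with no overlap between the groups. P-SSCs were lower than BM-MSCs (log2 difference -3.04 ± 0.18, adjusted p = 5.98e-06, limma), graft BM-MSCs were higher than P-SSCs (2.30 ± 0.17, adjusted p = 2.05e-05) and lower than BM-MSCs (-0.75 ± 0.17, adjusted p = 0.027). Tpm2 and Tpm3 were lower in graft BM-MSCs than in P-SSCs. Tpm2 averaged 841 ± 314 in graft BM-MSCs and 4034 ± 2290 in P-SSCs (adjusted p = 0.00843).

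Acta1, skeletal muscle actin, was listed at 0 in all marrow libraries and was 547, 893 and 206 in P-SSC 1, 2+5 and 4 (adjusted p = 0.000112 against the graft and 0.000247 against BM-MSCs, limma). It shares sequence with Actb. Of the other skeletal muscle markers found, Tnnt3 was 34.9 to 280 in P-SSCs and at most 1.69 elsewhere. Ckm was 1.94 to 84.1 in P-SSCs and listed at 0 elsewhere. Mylpf did not share this direction, at 38.8 to 82.8 in P-SSCs, 28.2 to 127 in BM-MSCs and 0 to 246 in the graft. Mrtfa, which carries the state of the actin pool to SRF, averaged 52.4 ± 37.3 in graft BM-MSCs, 604 ± 193 in BM-MSCs and 549 ± 106 in P-SSCs, and was lower in the graft than in both (log2 differences -3.70 ± 0.64 and -3.59 ± 0.64, adjusted p = 0.00808 and 0.00301). It was the 1 gene of 4 tested in its class that was called.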

How the data were processed

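RNA of sorted cells was sequenced in 10 libraries. The authors aligned the reads with STAR to the mouse genome (GRCm38 in the study's methods, GRCm39 and STAR 2.5 in the submitters' processing notes, which also name FastQC 0.11.5, cutadapt 1.15, featureCounts of Subread 1.4.6 and DESeq2 1.26.0). The deposited table holds a signal, the count of reads per gene over its library's size factor, with no coordinates. Whether counting used strand is not given in the sources used here.

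Values were whole multiples of 1 step per library, which returned whole reads for 100% of them (tolerance 0.001). Column names matched 1 library each. Genes whose mean reached 10 were tested (13644, with 1434 removed) on log2(value + 1), where fold changes of low genes are understated, with limma 3.58.1 in R 4.3.3: 1 mean per group, all 10 libraries, 7 residual degrees of freedom, trended empirical Bayes, two-sided, Benjamini-Hochberg adjustment, threshold 0.05. Gsn was not tested against P-SSCs. The methods were tested on simulated data. The smallest detectable amount was set at 3 reads, 0.119 to 0.195 ppm of a library, for counting error only.

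Alternatives were pseudocounts of 0.1 and 5, filtering nothing or on a mean of 100, median centring, quantile normalization, CPM of the recovered reads, fits of only 2 groups, leaving out each library, a replicate block, edgeR 4.0.16 and DESeq2 1.42.0 on recovered reads, a GC correction (loess), the same with the block, and a covariate for the libraries with GC-rich genes high. That covariate is estimated only from P-SSC 4 against the other P-SSC libraries, since neither marrow group varies in it. The 8 genes and all lists were chosen with earlier results of these data known. Of other listed genes, those named are mainly, per class and comparison, the called gene with the largest rise and fall among means of at least 100. Where a count of 3 or fewer called genes of a class is described, its members are named too. Other called genes of a class are not all named. Gene positions, lengths and GC content came from GENCODE M21 (99.8% of IDs matched), and promoters from RefSeq on GRCm38.p6, where Capg, Tmsb4x, Tmsb10, Pfn1, Cfl1, Actg1 and Gsn were found.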

Additional observations from a re-analysis of the deposited data

Results flagged for a closer look

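Over the 4 graft libraries, 36 measures (genes and ratios) were tested by Dixon's test at the 95% level, which chance passes in about 1 of 20 groups, and 4 values lay far from the rest. Coro1a, a coronin of blood cells, was 1322 in graft BM-MSC 3 and at most 186 in the other graft libraries, and the pan-blood markers summed to 3390 in that library. Flnc, a filamin, was 48.3 in graft BM-MSC 3 and listed at 0 in the others, where any value above 0 would have passed, so that the test carries no information for this gene. The ratio of Cfl1 to Actb per kilobase was 0.197 in graft BM-MSC 3 against 0.313 to 0.324 in the others. Marcksl1 was 3041 in graft BM-MSC 4 and 1902 to 1920 in the other graft libraries.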

How the results depend on the processing

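The members called numbered 4, 2 and 2 of 7, 8 and 7 for the graft against periosteum, the graft against wild-type marrow, and periosteum against wild-type marrow, in that order throughout, and the other listed genes called numbered 34, 16 and 15. With any 1 library left out, the members called ranged from 3 to 5, 1 to 3 and 1 to 3, and the listed genes from 22 to 39, 6 to 20 and 6 to 16. Other counts of members that moved over 1.5 times were 2, 1 and 1 with median centring, 1 for graft against BM-MSC with a mean of at least 100, 1 and 1 with edgeR and with the GC correction for the comparisons with BM-MSCs, 1 for P-SSC against BM-MSC with 2 groups only, and 0 for graft against BM-MSC with the GC covariate. Listed genes called moved to 21, 5 and 7 with edgeR, to 27 with DESeq2, 10 with quantile normalization and 10 with a mean of at least 100 for graft against BM-MSC, to 24 with 2 groups only for P-SSC against BM-MSC, and to 12 and 0 with the GC covariate for both graft comparisons. Counts with the GC covariate rest on P-SSC 4 and do not separate GC content from the graft group.

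Whether same-numbered libraries of different groups share mice is not stated in the sources used here. Over these libraries, deviations from the group mean correlated by -0.0191 to 0.0295, which does not settle the question. With the replicate block the members called were 1, 0 and 0, and the listed genes 6, 0 and 1. With the GC correction and the block they were 2, 0 and 0, and 7, 0 and 1. Over all genes the block left 269, 3 and 54 calls, against 2464, 1046 and 1248 without it.

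Signs that turned belonged to differences that did not pass the test. For graft BM-MSC minus P-SSC, without P-SSC 4 Tmsb10 was -0.13 and Cfl1 -0.12, and with the GC covariate Pfn1 was -0.044. For graft BM-MSC minus BM-MSC, Capg was 0.13, 0.31 and 0.064 and Actg1 0.21, 0.30 and 0.13 with the GC correction, the same with the block, and the GC covariate. Cfl1 was 0.60, 0.64 and 0.49 in these fits and 0.078 with CPM scaling. Pfn1 was 0.47 and 0.19 with the GC correction without and with the block, 0.18 with quantile normalization, 0.33 with CPM scaling, 0.067 without graft BM-MSC 4 and 0.013 without BM-MSC 3. For P-SSC minus BM-MSC, Tmsb4x was 0.064 and Actb 0.068 both without P-SSC 4 and with the GC covariate, and Tmsb10 was -0.025 without P-SSC 2+5. In this comparison the covariate takes up P-SSC 4, so that both fits give the same difference by design. With 1 library left out, the differences that turned ranged up to 0.71 for Tmsb10 and 0.40 for Cfl1 (graft minus P-SSC), down to -0.10 for Pfn1 (graft minus BM-MSC), and to -0.25 for Tmsb4x, 0.82 for Tmsb10 and -0.44 for Actb (P-SSC minus BM-MSC). The causes were not tested. Of 24 alternatives, Capg against P-SSCs kept its direction in all and its call in all 24 for the graft and in 22 for BM-MSCs. Depth limits the low genes of the list, such as Scin and Flnc in graft libraries, more than the members.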

Other observations

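The ratio of Pfn1 to Actb per kilobase, chosen after the values were seen and not tested, was 0.325 to 0.417 in graft BM-MSCs and 0.135 to 0.171 in BM-MSCs. It was 0.0511 and 0.0661 in P-SSC 1 and 2+5 and 0.258 in P-SSC 4. The ratio of Cfl1 to Actb was 0.197 to 0.324 in graft BM-MSCs, 0.118 to 0.163 in BM-MSCs and 0.120 to 0.126 in P-SSCs, so that every graft library lay above every steady-state library in both ratios.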
